A study of Mus musculus with 6 samples.

Results

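The genes described here are Kcnc1, Kcnc2 and Kcnc4, which encode the Kv3 potassium channel subunits Kv3.1, Kv3.2 and Kv3.4, and Kcns1, Kcns2 and Kcns3, which encode the silent subunits Kv9.1, Kv9.2 and Kv9.3. They were chosen by symbol, as 6 of the 23306 rows of the count table, and all 6 were among the 12449 genes with enough counts to be tested. RNA on ribosomes carrying haemagglutinin-tagged Rpl22 was sequenced from frontal cortex parvalbumin neurons of male mice, strain C57BL6. The tag (the RPL22HA allele) was switched on by Cre from a parvalbumin driver line. The knockout mice had a conditional knockout of Fxr1, which encodes an RNA-binding paralog of the fragile X protein FMRP, made with the same Cre, so both the deletion and the tag are limited to cells in which that driver is or has been active. The comparison mice were wild type for Fxr1. The labels give no age and do not say whether each library came from a separate animal or from pooled animals, so the p-values below measure the spread between libraries, which may be partly technical.

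Kv3 channels open only at strongly depolarised voltages and close fast, which repolarises the membrane quickly and lets fast-spiking interneurons fire long trains of brief action potentials. Parvalbumin neurons are the cortical cells best known for Kv3 current, which is carried largely by Kv3.1 and Kv3.2. Kv9 subunits do not form working channels alone. They assemble with Kv2 subunits and change the gating and current size of the resulting channel. The Kcnc1 transcript is a known target of FMRP.

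Of the 6 libraries in the series, 4 were analysed, knockout replicates 1 and 3 and wild type replicates 2 and 3, with 9696126 to 10301280 counts each. The libraries did not group by genotype in their overall counts. The chi-square per degree of freedom was highest between the 2 knockout libraries, at 6.0, was 3.52 between the 2 wild type libraries, and was lowest between knockout replicate 3 and wild type replicate 3, at 2.90. Fxr1 had 181 and 192 counts in the knockout libraries, against 954 and 1036 in the wild type libraries, and edgeR's quasi-likelihood test gave it a log2 fold change of −2.45 with SE 0.10 (adjusted p = 1.77e-15). The 14 genes listed as markers of parvalbumin neurons ranged widely in CPM, the counts relative to the TMM-scaled total of each library. Gad1, the GABA-synthesising enzyme gene, was the highest at 4241 ± 150 CPM (SD, n = 4). Pvalb itself averaged 254 ± 11.6 CPM (SD, n = 4), and the lowest of the 14 averaged 11.6 CPM. Transcripts of other cells were present too. Camk2a of excitatory neurons averaged 698 ± 23.2 CPM, Slc17a7 79.2 ± 7.87 CPM and the astrocyte gene Slc1a2 473 ± 31.7 CPM (SD, n = 4). Of 9 markers of other interneurons, which summed to 200.1 to 247 CPM over the 4 libraries, the highest averaged 137 CPM, Sst 9.74 ± 0.732 CPM and Vip 1.12 ± 0.346 CPM. Per kb of exons Sst averaged 13.5 ± 1.02 CPM, within the spread of Slc17a7 at 14.7 ± 1.46 CPM (SD, n = 4). The highest of the 9 per kb was Npy, at 46.6 ± 19.9 CPM (SD, n = 4). No input fraction was analysed here, so a level is that of the pull-down and not an enrichment. In such bulk material fewer parvalbumin neurons and less RNA per neuron cannot be told apart.

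The 6 genes lie on 6 chromosomes of mm10 and are protein-coding. Kcnc1 lies on the plus strand of chromosome 7 at 46396497 to 46438704, Kcnc2 on the plus strand of chromosome 10 at 112271121 to 112467024, and Kcnc4 on the minus strand of chromosome 3 at 107438303 to 107459552. Each of these Kv3 genes has 4 coding exons. The Kv9 genes are built more simply, with 2 coding exons in Kcns1 (chromosome 2, 164163619 to 164171113, minus strand) and a single one in both Kcns2 (chromosome 15, 34837355 to 34843407, plus strand) and Kcns3 (chromosome 12, 11090202 to 11151056, minus strand). Only Kcns3 overlaps another annotated gene, the processed pseudogene Gm48088 on the opposite strand, which touches none of its exons.

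The pore of voltage-gated potassium channels holds a selectivity filter built around a glycine-tyrosine-glycine signature. The stretch of coding sequence around it is shown because both classes carry it, so that it displays how alike or unlike the transcripts are where they can be lined up. A search of the coding sequences in frame, on the coding strand only, for the codons of this filter signature (threonine, any residue, glycine, tyrosine, glycine) gave 1 match in each of the 6 genes. The 51 bases around each match are given 5′ to 3′ from the GENCODE M21 transcripts of mm10, with the 15 matching bases in capitals.
Kcnc1 (chr7:46427955-46428005, plus strand): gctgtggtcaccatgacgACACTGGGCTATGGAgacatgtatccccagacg
Kcnc2 (chr10:112456211-112456261, plus strand): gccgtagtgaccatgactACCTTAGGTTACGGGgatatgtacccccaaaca
Kcnc4 (chr3:107447781-107447831, minus strand): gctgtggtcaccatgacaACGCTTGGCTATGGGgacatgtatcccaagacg
Kcns1 (chr2:164164836-164164886, minus strand): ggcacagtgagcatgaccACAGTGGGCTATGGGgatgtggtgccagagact
Kcns2 (chr15:34839594-34839644, plus strand): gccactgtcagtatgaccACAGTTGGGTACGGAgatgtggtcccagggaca
Kcns3 (chr12:11091557-11091607, minus strand): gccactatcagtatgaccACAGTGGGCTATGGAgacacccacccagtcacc

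Within this window Kcnc1 and Kcnc4 matched at 46 of 51 bases, more than any other pair, while Kcnc1 and Kcnc2 matched at 37. The Kv9 pairs matched at 35 to 40 bases, and pairs of a Kv3 with a Kv9 gene at 28 to 33. Over the whole coding sequence, identity in a pairwise alignment was 74.6% for Kcnc1 and Kcnc2, 74.8% for Kcnc1 and Kcnc4 and 72.5% for Kcnc2 and Kcnc4, against 65.5% to 68.4% among the Kv9 genes and 62.2% to 66.9% between the classes. Shared runs were searched only between the transcripts with the longest coding sequence of each gene. The longest run that any pair of these transcripts shared was 29 bases. It occurred in Kcnc1 with Kcnc2, at chr7:46397975-46398003 and chr10:112272156-112272184, both plus strand, where both genes read gacgtggagccctgctgctggatgaccta. A run of the same length occurred in Kcnc1 with Kcnc4. Neither the read length nor the handling of reads that fit several genes is given in the sources used here, and sharing of reads between the Kv3 genes was not tested.

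Kcnc1, whose product Kv3.1 is the main delayed rectifier of fast-spiking cells, was the most abundant of the 6. It measured 1612 and 1754 CPM in knockout replicates 1 and 3, against 1662 and 1834 CPM in wild type replicates 2 and 3. The ranges overlapped, and each genotype had a higher and a lower library. Its mean was 1683 ± 101 CPM in knockout and 1748 ± 121 CPM in wild type (SD, n = 2 each), and by mean CPM over the 4 libraries it ranked 42nd of the 12449 tested genes.

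Kcnc2, whose product Kv3.2 forms mixed channels with Kv3.1 in these cells and is also made by somatostatin interneurons, varied least. It measured 777 and 799 CPM in knockout replicates 1 and 3, against 806 and 770 CPM in wild type replicates 2 and 3, so the knockout values lay inside the wild type range. The coefficient of variation over the 4 libraries was 2.16%, with 1.12% from counting error alone at these counts. For Kcnc1 it was 5.74% against 0.759%.

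Kcnc4, which encodes the fast-inactivating Kv3.4, was scarce and ranked 9562nd of the 12449 tested genes by mean CPM. It had 53 and 74 counts in knockout replicates 1 and 3, which is 5.27 and 7.14 CPM, against 67 and 53 counts in wild type replicates 2 and 3, which is 6.87 and 5.18 CPM. Each genotype had one higher and one lower library, and the ranges overlapped. The coefficient of variation was 16.9%, with 12.7% from counting alone.

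Among the Kv9 genes Kcns3 was the most abundant. Its product Kv9.3 enhances the current of the channels it joins, and the human gene is known as a transcript of prefrontal parvalbumin neurons. Kcns3 measured 73.1 and 68.7 CPM in knockout replicates 1 and 3, against 68.4 and 72.4 CPM in wild type replicates 2 and 3. The genotypes overlapped. Kcns1, for Kv9.1, measured 32.7 and 34.3 CPM in knockout replicates 1 and 3, against 33.4 and 35.6 CPM in wild type replicates 2 and 3. The coefficients of variation of Kcns3 (3.48%) and Kcns1 (3.64%) were no larger than counting error alone gives (3.74% and 5.40%). Kcns2, for Kv9.2, had 70 and 108 counts in knockout replicates 1 and 3, which is 6.96 and 10.4 CPM, against 63 and 93 counts in wild type replicates 2 and 3, which is 6.46 and 9.09 CPM. Its coefficient of variation was the largest of the 6, at 22.5% against 10.9% from counting, and knockout replicate 1 and wild type replicate 2 were the low libraries. The same 2 libraries were the lower ones of their genotypes for Kcnc1 and Kcns1.

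**Figure D1:**
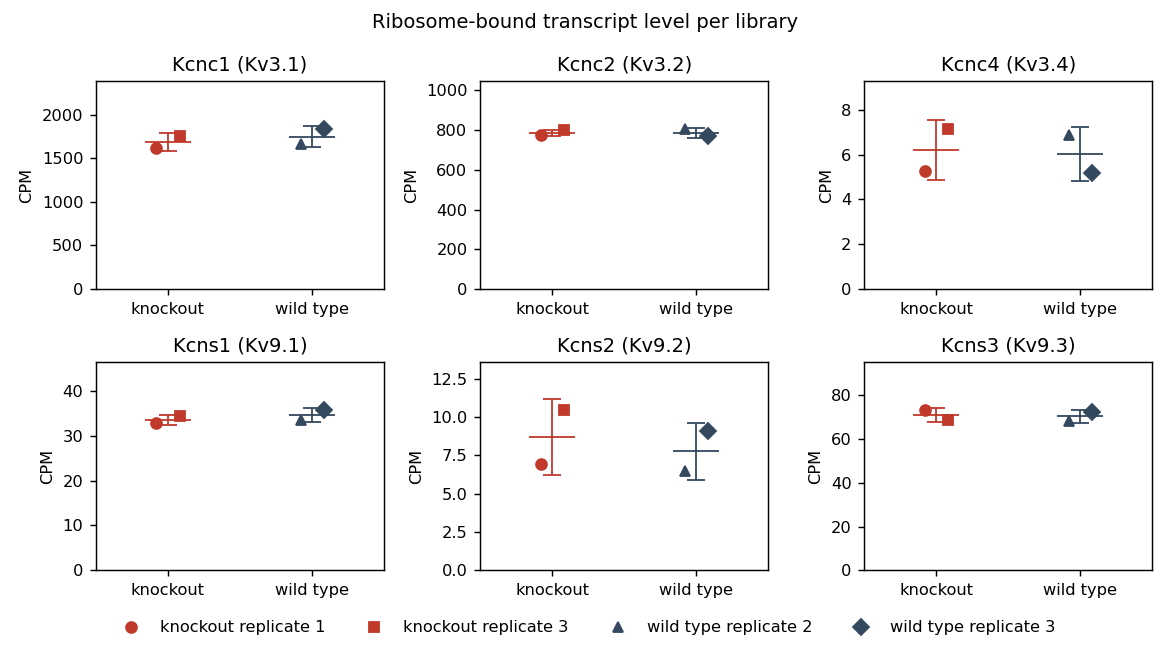
TMM-scaled CPM of the 6 channel genes in each library, with the vertical axis from 0 in each panel; symbols are libraries, horizontal bars the mean and error bars the SD of 2 libraries. Knockout and wild type values overlap in all 6 panels, from Kcnc1 at 1612 to 1834 CPM to Kcnc4 at 5.18 to 7.14 CPM.

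To compare genes with each other, CPM was divided by the length of the gene's exons in kilobases, since longer transcripts give more reads. On this scale Kcnc1 stood at 178 ± 10.6 CPM per kb in knockout and 185 ± 12.8 in wild type, and Kcnc2 at 110.4 ± 2.13 in knockout and 110.4 ± 3.54 in wild type (SD, n = 2 each). Kcns3 came next at 22.4 ± 0.993 CPM per kb in knockout and 22.3 ± 0.897 in wild type, followed by Kcns1 at 12.3 ± 0.406 in knockout and 12.7 ± 0.558 in wild type. Kcnc4 (1.69 ± 0.361 in knockout and 1.64 ± 0.326 in wild type) and Kcns2 (1.56 ± 0.439 in knockout and 1.39 ± 0.33 in wild type) did not differ beyond their spread. The order Kcnc1, Kcnc2, Kcns3, Kcns1 held in each of the 4 libraries, and Kcnc4 lay above Kcns2 in 3 of them and below it in wild type replicate 3. Taking the longest transcript as the length gave the same order in each library.

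The step between neighbours was uneven. Per kb, Kcnc1 was 1.56 to 1.80 times Kcnc2 over the 4 libraries, or 1.34 to 1.55 times with the longest transcript as the length. Kcnc2 was 4.71 to 5.22 times Kcns3, and Kcns3 1.72 to 1.92 times Kcns1. With the longest transcript as the length these ratios were 6.18 to 6.84 and 1.85 to 2.07. Below Kcns1 the level dropped, as Kcns1 was 6.77 to 10.7 times Kcns2 and Kcnc2 57.5 to 76.3 times Kcnc4. The longest transcript as the length gave 6.61 to 10.4 and 81.3 to 108 for these. Among the 11684 tested genes that had a single gene model, Kcnc1 ranked 96th per kb and Kcnc2 214th, Kcns3 1744th and Kcns1 3111th, whereas Kcnc4 and Kcns2 ranked 8844th and 9065th.

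Set among the other voltage-gated potassium channel genes, Kcnc1 and Kcnc2 stood per kb beside a pair of Kv1 genes. Kcna1, for the axonal low-threshold subunit Kv1.1, averaged 247 ± 16.1 CPM per kb and Kcna2, for its partner Kv1.2, 145 ± 3.32 (SD, n = 4). Of the other silent subunit genes, Kcng4, for Kv6.4, stood at 22.8 ± 0.659 CPM per kb, within the spread of Kcns3 (22.3 ± 0.778 over the same 4 libraries), and the next, Kcnf1, at 3.34 ± 0.330. Kcns3 and Kcng4 were thus the silent subunit genes with the highest level in the pull-down.

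**Figure D2:**
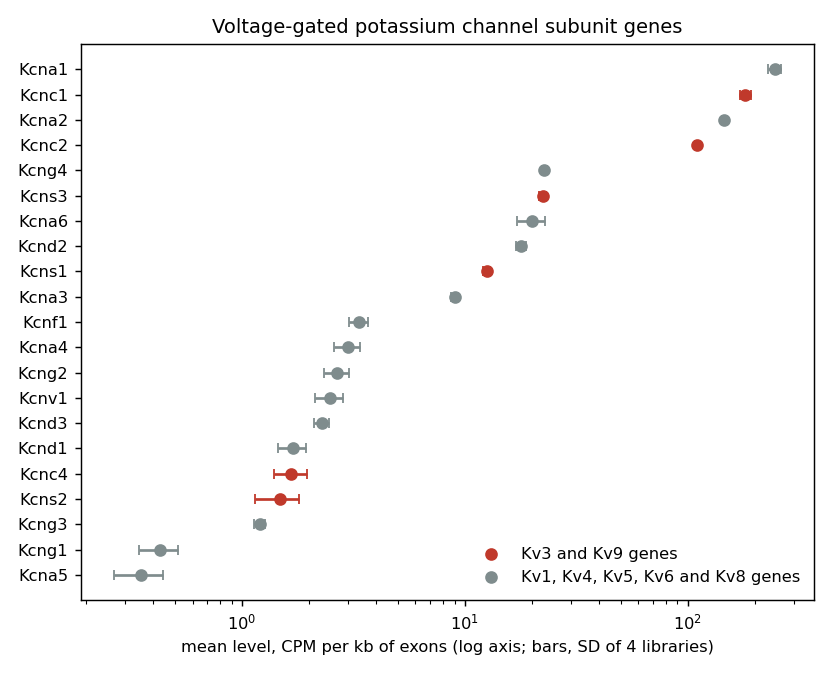
Mean level in CPM per kb of exons on a log axis, with the SD of 4 libraries, for the 6 Kv3 and Kv9 genes and the Kv1, Kv4, Kv5, Kv6 and Kv8 genes with counts. Kcnc1 and Kcnc2 stand near the top beside Kcna1 and Kcna2, Kcns3 beside Kcng4, and Kcnc4 and Kcns2 near 1.67 and 1.47 CPM per kb.

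The composition of the 3 Kv3 and 3 Kv9 members was described by each gene's share of the summed CPM per kb, with no test. Within Kcnc1, Kcnc2 and Kcnc4, Kcnc1 took 60.7% and 62.0% in knockout replicates 1 and 3, against 60.5% and 64.0% in wild type replicates 2 and 3. Kcnc2 took 38.8% and 37.4% in those knockout libraries, against 38.9% and 35.6% in the wild type libraries. Kcnc4 made up the rest, 0.512% and 0.651% in knockout and 0.645% and 0.466% in wild type. The knockout shares of all 3 genes overlapped the wild type shares.

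Within the Kv9 genes, Kcns3 took 63.5% and 60.0% in knockout replicates 1 and 3, against 61.6% and 60.8% in wild type replicates 2 and 3. Kcns1 took 33.1% and 34.9% in the knockout libraries, against 35.1% and 34.9% in the wild type libraries, and Kcns2 3.42% and 5.15% in knockout, against 3.30% and 4.32% in wild type. These shares overlapped between the genotypes too. Summed per kb, Kcnc1, Kcnc2 and Kcnc4 reached 281 and 299 CPM per kb in knockout, against 291 and 303 in wild type, and the 3 Kv9 genes 36.4 and 36.2 in knockout, against 35.1 and 37.6 in wild type. The sum of these 3 Kv3 genes was 7.71 and 8.27 times the Kv9 sum in knockout replicates 1 and 3. In wild type replicates 2 and 3 it was 8.27 and 8.05 times the Kv9 sum. With the longest transcript as the length it was 9.49 to 10.2 times over all libraries.

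**Figure D3:**
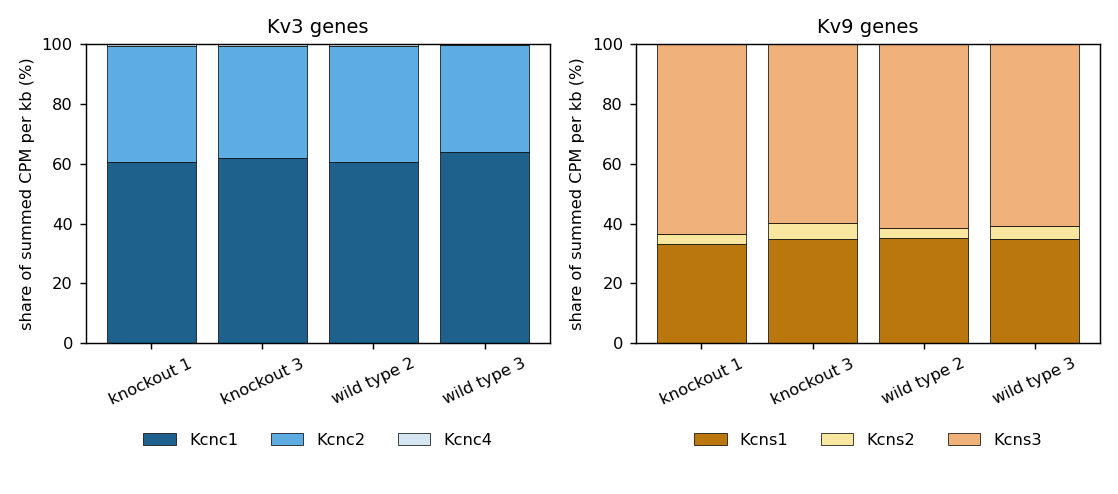
Stacked bars of the share (%) of each gene in the summed CPM per kb of Kcnc1, Kcnc2 and Kcnc4 (left) and the 3 Kv9 genes (right), one bar per library. Kcnc1 holds 60.5% to 64.0% of the first sum and Kcns3 60.0% to 63.5% of the second, with no separation of knockout from wild type.

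The knockout comparison asked whether the ribosome-bound level of these transcripts depends on Fxr1 in parvalbumin neurons. None of the 6 genes passed the edgeR test at an adjusted p of 0.05, and 0 had an unadjusted p under 0.05; DESeq2 and limma voom called 0 as well. Over all tested genes 0.0321% passed (4 of 12449) and 3.23% had such an unadjusted p, so 0 of 6 does not set these genes apart. The libraries of the genotypes overlapped for all 6 genes. They did not overlap for 30.1% of tested genes, so this count does not set the 6 genes apart either. The median log2 fold change of the 6 was 0.0049, against −0.0015 over all tested genes, with 4 above and 2 below 0.

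The precision of the estimates differed with the level of the gene. For Kcnc1 the log2 fold change was −0.055 with SE 0.068 (adjusted p = 0.998 by edgeR), and the 95% interval of the fold change, knockout over wild type, ran from 0.874 to 1.06. For Kcnc2 it was 0.00032 (SE 0.065), with an interval from 0.912 to 1.10. The silent subunits Kcns3 (0.0095, SE 0.090) and Kcns1 (−0.044, SE 0.11) had intervals from 0.886 to 1.14 and from 0.829 to 1.14. All 4 intervals thus lie between 0.829 and 1.14 under the model of edgeR.

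The intervals of the scarce genes were wider. Kcnc4 had a log2 fold change of 0.046 (SE 0.24), with an interval of the fold change from 0.739 to 1.44, and Kcns2 one of 0.16 (SE 0.22), with an interval from 0.810 to 1.54. A single library decided the sign of both: leaving out each library in turn gave −0.19 to 0.26 for Kcnc4 and −0.16 to 0.43 for Kcns2. The lowest value came without knockout replicate 3 for both genes. The highest came without wild type replicate 2 for Kcnc4 and without wild type replicate 3 for Kcns2. Kcns2 varied between libraries by more than counting gives, so its interval is not set by depth alone.

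**Figure D4:**
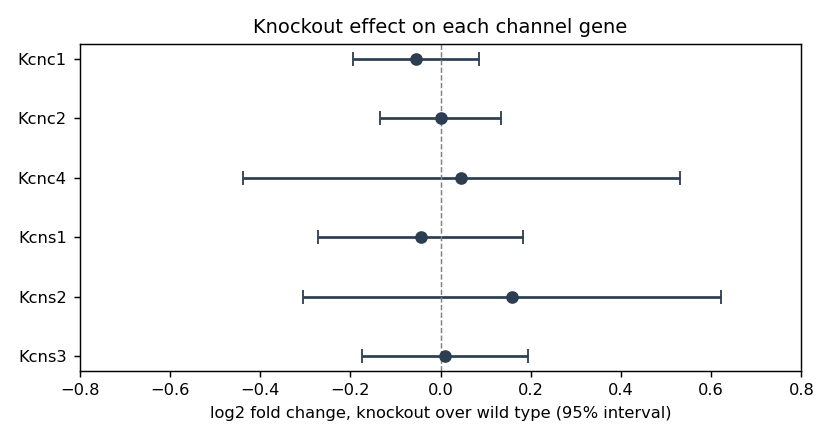
Log2 fold change, knockout over wild type, of each gene with its 95% interval from edgeR's quasi-likelihood fit of 2 against 2 libraries; the dashed line marks no change. All 6 intervals include 0, and those of Kcnc4 (−0.44 to 0.53) and Kcns2 (−0.30 to 0.62) are the widest.

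Other potassium channel genes were taken from lists of pore, silent and auxiliary subunits. Of 29 listed genes 25 were tested, and 0 passed by edgeR, 0 had an unadjusted p under 0.05, and DESeq2 and limma voom called 0. The median log2 fold change was −0.0091, with 11 genes above and 14 below 0, and the genotypes did not overlap for 7 of them (28.0%, against 30.1% of all tested genes).

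Among the 6 other silent subunit genes that were tested, 0 passed and 3 lay above and 3 below 0. The smallest p values of this list belonged to Kcng2 (log2 fold change −0.12, SE 0.21), Kcnf1 (0.071, SE 0.15) and Kcng3 (0.092, SE 0.27), and Kcng4 had −0.0091 (SE 0.085). Kcnv2, the seventh, had 0 counts in each library, which allows up to 3 counts per library. Of the 6 Kv1 genes 0 passed, with values of 0.15 (SE 0.13) for Kcna6, 0.045 (SE 0.071) for Kcna1 and −0.077 (SE 0.14) for Kcna3. The 3 Kv4 genes, which carry the subthreshold A-type current, gave 0 calls, with −0.18 (SE 0.13) for Kcnd3, 0.048 (SE 0.086) for Kcnd2 and −2.3e-06 (SE 0.18) for Kcnd1.

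Of the 10 tested auxiliary subunit genes 0 passed, and 7 lay below 0. Kcnip4, for a calcium-sensing partner of Kv4, had the smallest p of all 25 channel genes (adjusted p = 0.998 by edgeR) at a log2 fold change of −0.19 with SE 0.10. It measured 46.7 and 41.8 CPM in knockout replicates 1 and 3, against 51.9 and 49.2 CPM in wild type replicates 2 and 3. Dpp6 (−0.093, SE 0.068) and Dpp10 (−0.11, SE 0.080), also for partners of Kv4, followed. In this list 4 genes, these 3 among them, had knockout libraries at or below the lower wild type library. The other 6 overlapped, of which 2 are for Kv4 partners as well. Over all tested genes the genotypes did not overlap for 30.1%, counting both directions, and this list was not tested as a set. Kcnab2, for the Kv1 beta subunit that stood highest per kb in this list at 161 ± 7.32 CPM per kb (SD, n = 4), had 0.011 (SE 0.068).

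Markers of the cells in the pull-down stood as follows beside these values. The 14 parvalbumin neuron markers summed to 14542 and 13623 CPM in knockout replicates 1 and 3, against 14344 and 14036 CPM in wild type replicates 2 and 3, and the 10 excitatory neuron markers to 1046 and 1060 CPM in knockout, against 1072 and 993 CPM in wild type. The 9 markers of other interneurons summed to 200.1 and 246 CPM in knockout, against 228 and 247 CPM in wild type. The lower library of each genotype in that list was the same as for Kcnc1, Kcns1 and Kcns2. The 6 astrocyte markers summed to 519 and 591 CPM in knockout, against 537 and 507 CPM in wild type. The 6 oligodendrocyte markers summed to 115 and 157 CPM in knockout, against 119 and 119 CPM in wild type, so knockout replicate 3 stood above the other libraries. The 6 microglia and vessel markers summed to 12.8 to 14.9 CPM over the 4 libraries. The 5 striatal neuron markers in the table were at 62.8 and 61.6 CPM in knockout, against 51.9 and 51.4 CPM in wild type. Of the 52 tested marker genes 0 passed by edgeR, DESeq2 or limma voom, and 6 had an unadjusted p under 0.05 by edgeR, of which 4 were striatal (Ppp1r1b, Drd2, Adora2a and Penk). None of the defining markers Pvalb, Slc17a7, Sst, Vip, Aqp4 and Cx3cr1 was at 0. The part of these differences in the channel values was not tested.

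The genes whose profile over the 4 libraries was nearest to that of Kcnc1 were Klhdc2, Arf6 and Ppp2r1b, with root mean square differences of 0.0037, 0.0044 and 0.0056 (log2 CPM centred on each gene's mean) among 8429 genes of at least 10 CPM. For Kcns3 they were Shoc2, Stx5a and Mrpl37, at 0.0034, 0.0043 and 0.0046. Likeness over 4 libraries, which share their depth and preparation, is a description only. Klhdc2, for instance, measured 266 and 288 CPM in knockout replicates 1 and 3, against 274 and 301 CPM in wild type replicates 2 and 3, in the same order of libraries as Kcnc1.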

How the data were processed

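Ribosome-bound RNA was isolated by immunoprecipitation of tagged Rpl22 and sequenced with a stranded total RNA kit, per the labels' protocols. STAR was the aligner and mm10 the build, per the submitters' processing notes; neither STAR's version nor the counting tool, annotation or strand setting is given in the sources used here. How reads of similar or overlapping genes were counted is therefore unknown. The deposited values are raw counts per gene symbol from the authors, in 23306 rows. Of the columns, 4 matched 1 sample title each and were used, and 2 that share a name were not. Replicate numbers follow accession order and pair nothing. No pair of libraries agreed within sampling noise (chi-square per degree of freedom 2.90 to 6.00).

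Counts were fitted in R 4.3.3 with edgeR 4.0.16 (filterByExpr, TMM, robust quasi-likelihood fit on the whole table, Benjamini-Hochberg adjustment over all tested genes, threshold 0.05). The test was checked on simulated data. Standard errors and 95% intervals come from the same fit. Levels per kb use the union of exons in GENCODE M21 (mm10), matched by symbol. Coding sequences were aligned with Biopython 1.88. Alternatives were DESeq2 1.42.0, limma 3.58.1 voom, other scalings, filters and lengths, a non-robust fit and leaving out each library. The 6 genes, the lists and the tests were chosen with earlier results of these data known. The rule for names took the 6 genes, Fxr1, of each channel list the 3 smallest p and the highest level per kb, of each marker list the defining genes and the 2 highest, and the 3 nearest profiles of Kcnc1 and Kcns3; some channel and marker genes are not reported here. Kcna2, Kcnv2, Drd2, Adora2a, Penk, Npy and Tac1 were named after their values were seen.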

Additional observations from a re-analysis of the deposited data

How the results depend on the processing

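Under all 11 alternatives of the fit, 0 of the 6 channel genes and 0 of the 25 other channel genes passed, with adjusted p values of the 6 from 0.932 to 1; Fxr1 passed in each. The sign of Kcnc2 turned with library totals (−0.00075) and with at least 5 CPM in 3 libraries (−0.0010). Leaving out each library gave log2 fold changes from −0.12 to 0.019 for Kcnc1, −0.031 to 0.036 for Kcnc2, −0.19 to 0.26 for Kcnc4, −0.085 to 0.0022 for Kcns1, −0.16 to 0.43 for Kcns2 and −0.037 to 0.055 for Kcns3, so the sign of each depended on a single library; a library left alone is assumed to vary like the other genotype. The count of 4 genes past the threshold became 1 with library totals, 2 by DESeq2's Wald test, 13 with no filter on low counts and 9 to 48 when a library was left out (wild type replicate 2 gave 9 and replicate 3 gave 25, knockout replicate 1 gave 29 and replicate 3 gave 48). Of the marker genes, 0 to 2 passed without single libraries: Npy (log2 fold change 0.59) without knockout replicate 1, and Npy (−0.80) and Tac1 (−0.51) without knockout replicate 3. The share of Kcnc1 in the 6 genes in knockout was 54.5% and became 52.5% with the longest transcript as the length. That of Kcnc2 went from 33.8% to 37.8% with the same change. The causes of these shifts were not tested. No label numbers the replicates. No paired analysis was possible because of this. Depth limits Kcnc4 and Kcns2 the most: with 53 to 108 counts per library, counting alone gives coefficients of variation of 12.7% and 10.9%.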
